A study of Mus musculus with 63 samples.

Results

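The genes described here are 10 components and direct outputs of the circadian clock: Dbp, Tef and Hlf, Per1, Per2 and Per3, Nr1d1 and Nr1d2, Ciart, and Arntl. They were chosen by gene symbol, 10 of the 54752 genes in the count tables, because Dbp was lower in intestinal epithelial cells (IECs) of mice lacking the Mediator kinases CDK8 and CDK19. The values that chose them are therefore those of the IEC contrast, which is described without a test. The rule did not use the organoid comparisons, which were tested, although earlier results of these data were known when the genes were chosen.

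The mammalian clock is a feedback loop in which ARNTL (also called BMAL1) and CLOCK activate their own repressors, the PER and CRY proteins, from DNA elements called E-boxes. A second loop runs through the nuclear receptors NR1D1 and NR1D2 (REV-ERB), which repress Arntl from elements called ROREs, and a set of output genes led by the PAR bZIP transcription factors DBP, TEF and HLF acts through D-boxes. Most intestinal cells carry such a clock, and Dbp, Per and Nr1d1 transcripts differ widely between times of day in the gut, so that the hour of collection is part of any measured level.

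RNA-Seq libraries came from mouse small intestine, as freshly isolated IECs or as organoids, the epithelial cultures grown from intestinal crypts, with 3 libraries in each of 19 groups. IECs were from VillinCreERT2 mice and from VillinCreERT2, Cdk8 fl/fl, Cdk19 ko/ko mice (CDK8 iIEC-KO Cdk19-/-), all given tamoxifen at 80 mg/kg daily for 5 days and sampled 14 days after the last dose. Day 7 organoids were from 5 genotypes, VillinCreERT2, CDK8 iIEC-KO (VillinCreERT2, Cdk8 fl/fl), CDK8 iIEC-KO Cdk19-/-, Cdk8 fl/fl Cdk19-/- and C57BL/6, and every one of them had received 100 nM 4-hydroxytamoxifen (4-OHT), the agent that activates CreERT2, for 24 h. Neither the C57BL/6 nor the Cdk8 fl/fl Cdk19-/- genotype carries Cre. A time course compared 4-OHT with 0.001% ethanol vehicle (EtOH) in VillinCreERT2, Cdk8 fl/fl, Cdk19-/- organoids at days 3, 5, 7 and 10, so that its EtOH controls also lacked CDK19. The same 4-OHT and EtOH treatments were given to organoids of that genotype in Wnt3-conditioned medium (Wnt3-CM), collected at day 10, and, collected at day 7, to VillinCreERT2, Cdk8 fl/fl, Cdk19 ko/D173A organoids (Cdk19 D173A/-), which carry a kinase-dead CDK19 over the null allele. Cre was driven by the Villin promoter, which is active in the intestinal epithelium. The libraries of a day 7 group bore 1 line number, and the CDK8 iIEC-KO Cdk19-/- line sampled at day 7 had another number than the time course line. No label gave an hour or date of collection.

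Libraries held 15485959 to 32909565 counts. Whole-gene counts of Cdk8 and Cdk19 were no check of the deletions. In CPM, counts scaled to a common library total, Cdk8 lay between 49.1 and 52.5 in the double mutant IECs and between 45.7 and 52.8 in the VillinCreERT2 IECs, and Cdk19 between 15.1 and 19.0 and between 17.5 and 21.0. The tables give no counts by exon, so the genotypes rest on the labels. The epithelial markers Epcam, Cdh1, Krt8, Krt18, Vil1 and Cdx2 summed to 7317 to 7867 CPM in the double mutant IECs and, without overlap, to 8634 to 8963 CPM in the VillinCreERT2 IECs. The summed mesenchymal markers spanned 12.8 to 963 CPM in IECs, against 0.105 to 10.7 CPM in the organoid libraries but for 1 day 7 EtOH library at 36.6 CPM. In such bulk libraries fewer cells of a type and less RNA per cell cannot be told apart. The 3 organoid libraries of a group are not stated to be separate cultures, so that p-values measure only the spread between these libraries, which may be technical.

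Promoter sequence was read for the members from RefSeq (GRCm38.p6), in windows of 300 bases that end 50 bases past the annotated start. An entry was found for 9 of the 10 genes, all but Per2, and 12 windows in all. Both strands were searched for the E-box CACGTG and its variant CACGTT, the D-boxes TTATGTAA and TTACGTAA, and the ROREs TAGGTCA and TGGGTCA and the matches found in the members did not overlap one another. The E-box CACGTG was in 7.15% of all 32851 windows of the genome, CACGTT in 4.68%, TTATGTAA in 0.938%, TTACGTAA in 0.119%, TAGGTCA in 2.61% and TGGGTCA in 3.98%. At least 1 of these stretches was in 7 of the 12 windows of the members, which belong to 6 of the 9 genes, and in 18.1% of all windows. Ciart held CACGTG 3 times, at -116, -58 and -44 from the start. Per3 held TTATGTAA at -205 and -158, Nr1d1 held CACGTT at -28, and CACGTG was at -166 in 1 of the 2 Per1 windows and at -127 and -138 in the 2 Tef windows. The later of the 2 Arntl windows held TAGGTCA at 31 bases past its start, and none of these letters were in the Dbp, Hlf or Nr1d2 windows. A match describes letters only, not a bound site. The sequences before the start, without any base of the GENCODE gene, are shown for the gene that led the selection and for 3 genes with matches, 5′ to 3′ on the gene's strand, with the matched letters in capitals:
Dbp, chr7:45704997-45705087 (+): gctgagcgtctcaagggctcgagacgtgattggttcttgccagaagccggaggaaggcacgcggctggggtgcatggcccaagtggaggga
Per3, chr4:151044666-151044915 (-): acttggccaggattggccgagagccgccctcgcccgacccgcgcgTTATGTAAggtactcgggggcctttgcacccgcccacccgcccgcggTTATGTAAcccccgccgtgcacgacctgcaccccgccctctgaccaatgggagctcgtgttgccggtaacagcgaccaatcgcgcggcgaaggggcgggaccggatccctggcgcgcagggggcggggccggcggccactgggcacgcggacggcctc
Nr1d1, chr11:98775378-98775627 (-): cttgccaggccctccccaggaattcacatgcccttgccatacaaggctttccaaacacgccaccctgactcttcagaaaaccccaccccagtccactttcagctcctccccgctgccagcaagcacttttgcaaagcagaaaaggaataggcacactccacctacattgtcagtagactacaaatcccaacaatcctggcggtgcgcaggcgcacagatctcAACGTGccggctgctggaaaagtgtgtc
Ciart, chr3:95882252-95882478 (-): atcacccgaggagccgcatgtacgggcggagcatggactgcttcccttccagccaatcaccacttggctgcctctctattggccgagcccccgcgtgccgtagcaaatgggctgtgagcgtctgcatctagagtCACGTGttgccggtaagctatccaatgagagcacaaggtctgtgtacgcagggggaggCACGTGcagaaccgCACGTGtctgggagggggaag

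In IECs, Dbp (ENSMUSG00000059824.12, chr7:45705088-45710203), the PAR bZIP factor whose transcript has one of the deepest daily rhythms of the clock outputs, was far lower in the double mutants. It measured 26.9, 26.1 and 40.6 CPM in the VillinCreERT2 mice and 4.73, 5.54 and 4.76 CPM in the double mutant (CDK8 iIEC-KO Cdk19-/-) mice. The 3 mutant mice lay close together and below every control mouse, with means of 5.01 ± 0.46 and 31.2 ± 8.1 CPM (SD, n = 3 mice each). The fitted log2 change of -2.64 was the 14th deepest of 15182 genes. It was -2.40 without the third VillinCreERT2 mouse, the one with the most Dbp, and -2.74 without the second.

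The other PAR bZIP factors were not alike in IECs. Tef measured 62.7, 65.8 and 80.8 CPM in controls and 31.6, 40.2 and 41.1 CPM in mutants, a log2 change of -0.89 with no overlap. Hlf measured 4.61, 3.59 and 3.69 CPM in controls and 2.01, 2.42 and 6.09 CPM in mutants, so that its groups overlapped around a log2 change of -0.18. Hlf was at -0.84 without the third mutant mouse, which alone held the highest Hlf of the 6.

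The PER repressors, the negative arm of the loop, were also lower on average. Per3 was at 9.60, 8.04 and 11.98 CPM in controls and at 3.60, 5.69 and 3.88 CPM in mutants, a log2 change of -1.17. Per1 was at 35.8, 40.9 and 42.1 CPM against 16.8, 24.3 and 34.0 CPM, a log2 change of -0.66 with the highest mutant mouse just under the lowest control. Per2 was at 22.7, 17.6 and 32.4 CPM against 15.1, 21.1 and 17.3 CPM, and its groups overlapped at a log2 change of -0.44.

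In the second loop the groups of 1 gene did not overlap. Nr1d1, the REV-ERB alpha gene, was at 243, 197 and 232 CPM in controls and at 101, 141 and 135 CPM in mutants, a log2 change of -0.83. Nr1d2, its paralog, overlapped between groups at -0.49. Ciart, a repressor of the CLOCK and ARNTL dimer, held only 8 to 21 reads in each IEC library and overlapped at -0.68.

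Arntl, the activator repressed by the REV-ERBs, was the member with a higher mean in the mutants. It was at 29.2, 22.1 and 20.4 CPM in controls and at 35.9, 30.6 and 36.7 CPM in mutants, a log2 change of 0.53. All 3 mutant mice stood above all 3 control mice.

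Across the 10 members, 9 were lower in the mutant IECs, with a median log2 change of -0.67 beside 0.0049 over all genes. Groups did not overlap for 6 of them (Dbp, Tef, Per1, Per3, Nr1d1 and Arntl), where 26.8% of all genes did not overlap. Nothing is read from this count, since this contrast chose the genes. The hour at which each mouse was sampled is not given, so that kinase loss and collection time cannot be told apart in IECs. The numbers in the column names of the mutant mice all lay below those of the control mice, and no label says what they mean.

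**Figure D1:**
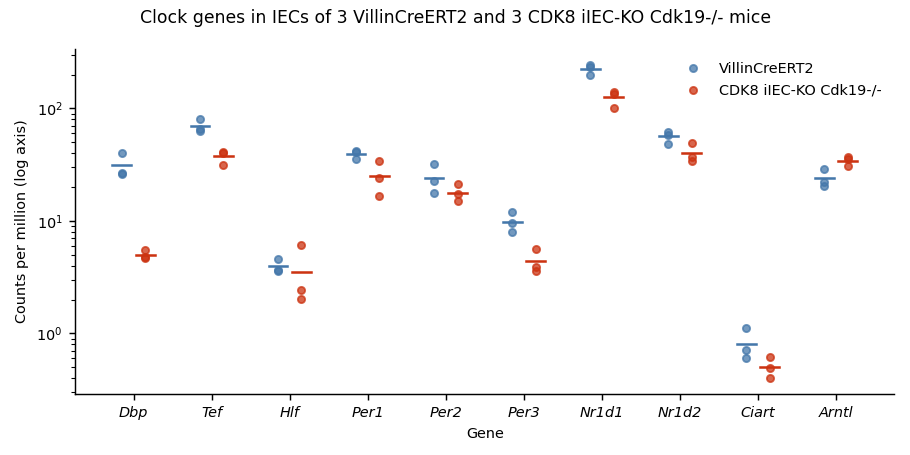
Level of each clock gene in CPM on a log axis in the 3 VillinCreERT2 mice (blue) and the 3 CDK8 iIEC-KO Cdk19-/- mice (red), with points for mice and lines for means. Dbp shows the widest gap, 4.73 to 5.54 CPM against 26.1 to 40.6 CPM, and Arntl is the gene whose red points lie above the blue.

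Other clock genes in IECs were mixed. Of the further loop genes listed, among them Clock, Npas2, Arntl2, Nfil3 and Bhlhe41, 3 did not overlap between groups: the repressor Cry1 was higher at 0.35, its paralog Cry2 lower at -0.40 and the repressor Bhlhe40 lower at -0.12. Of 4 further outputs, the deubiquitinase gene Usp2 was at -0.84, the cell cycle kinase gene Wee1 at -0.39 and Tspan4 at 1.46 without overlap. Usp2 spanned 84.2 to 86.5 CPM in controls and 37.3 to 58.3 CPM in mutants. Of 7 clock modifiers, Csnk1d at -0.12 and Csnk1a1 at -0.22 did not overlap, and both code for kinases that act on PER proteins. Over all genes 26.8% did not overlap in this contrast, and nothing is read from these counts.

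Several cell-type readouts differed beside the clock genes in IECs. Summed mesenchymal markers (6 genes) were at 453 to 963 CPM in the mutants and at 12.8, 881 and 54.9 CPM in the controls. Summed immune markers (8 genes) overlapped at 1800 to 2872 CPM and 1649 to 2969 CPM, although 7 of the 8 had a higher mean in mutants (median 1.43). The groups did not overlap for 5, namely the plasma cell genes Igkc (3.08) and Jchain (3.29), the T cell genes Cd3e (1.13) and Cd3g (1.35), and Cd74 (-0.96). Enterocyte markers (8 genes) overlapped at 26767 to 36133 CPM and 28523 to 29176 CPM, whereas tuft markers (3 genes) were at 19.8 to 31.9 CPM and 68.7 to 93.8 CPM and Paneth markers (3 genes) at 578 to 1578 CPM and 2469 to 3771 CPM. Goblet markers (3 genes) were at 1680 to 2625 CPM in mutants and 3114 to 4052 CPM in controls, and gut transporters (5 genes) at 2526 to 3943 CPM and 5600 to 6348 CPM, also without overlap. The summed glucocorticoid-induced genes (10 genes) overlapped at 378 to 711 CPM and 482 to 501 CPM, 5 of them with a higher and 5 with a lower mean, and without overlap for Fkbp5 (1.29), Pdk4 (0.90) and Cebpd (-0.78). Their part in the IEC values was not tested.

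The organoid lines collected at day 7 gave a different order. Dbp was at 7.40, 6.33 and 7.10 CPM in VillinCreERT2 organoids and at 18.7, 21.1 and 14.8 CPM in CDK8 iIEC-KO Cdk19-/- organoids, and it rose by 1.39 ± 0.12 on the log2 scale (SE; adjusted p = 2.22e-10, edgeR). Direction was thus opposite to that in the IEC contrast with the same genotype labels. The VillinCreERT2 and CDK8 iIEC-KO columns were named in another form than those of the other day 7 lines, and no label explains the form. Genotype, line and naming form cannot be told apart in this comparison. Hlf rose by 1.64 ± 0.22 (adjusted p = 9.97e-07), from 0.807, 1.25 and 1.15 CPM to 3.42, 2.99 and 3.60 CPM. Per3 rose by 0.66 ± 0.09 (adjusted p = 4.01e-07), from 13.0, 13.5 and 11.5 CPM to 19.6, 21.3 and 19.3 CPM. These 3 of the 10 members passed both cutoffs (fold change over 1.5 and adjusted p under 0.05), where 19.4% of all genes did.

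The remaining members changed less in that comparison. Per2 was higher by 0.50 ± 0.07 and Per1 lower by 0.55 ± 0.08 on the log2 scale, both with an adjusted p under 0.05 and neither past the fold cutoff. Tef at 0.18, Nr1d1 at 0.26, Nr1d2 at 0.23 and Arntl at -0.26 were of the same kind, and Ciart at 0.23 missed the adjusted p (0.0531, edgeR). In all 9 of 10 members had an adjusted p under 0.05, where 52.9% of all genes did. Groups did not overlap for 9 members, where 59.8% of all genes did not. Marker sums also differed without overlap between these lines. Among them were Paneth markers at 469 to 497 CPM in the double mutant and 1516 to 1573 CPM in the VillinCreERT2 line. Tuft markers were at 1.72 to 2.54 and 13.5 to 15.1 CPM, goblet markers at 675 to 715 and 1123 to 1216 CPM. Enteroendocrine markers were at 174 to 181 and 261 to 266 CPM. The enterocyte sum was at 23659 to 26445 and 26629 to 32310 CPM, although 6 of its 8 genes changed upward. Immediate early genes were at 198 to 237 and 294 to 323 CPM, and glucocorticoid-induced genes at 255 to 285 and 332 to 348 CPM. The part of these sums in the clock gene values was not tested.

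The control lines themselves differed in the same members. C57BL/6 organoids held 19.7, 19.9 and 19.9 CPM of Dbp, 3.87, 3.47 and 3.61 CPM of Hlf and 31.4, 27.7 and 28.2 CPM of Per3. Against the VillinCreERT2 line Dbp was higher by 1.52 ± 0.12, Hlf by 1.77 ± 0.22 and Per3 by 1.20 ± 0.08 (adjusted p = 2.84e-11, 1.83e-07 and 4.80e-12, edgeR). Again 3 of 10 members passed both cutoffs, where 26.4% of all genes did, and the contrasts share the 3 VillinCreERT2 libraries. Marker sums that differed without overlap between C57BL/6 and VillinCreERT2 included Paneth markers (3275 to 4136 and 1516 to 1573 CPM), enteroendocrine markers (587 to 647 and 261 to 266 CPM), goblet markers (688 to 764 and 1123 to 1216 CPM) and the 6 proliferation genes (1050 to 1130 and 804 to 869 CPM), and their part was not tested. Neither of these genotypes has a deleted kinase.

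The double mutant line was also set beside its Cre-free comparator. Dbp averaged 18.2 ± 3.2 CPM in CDK8 iIEC-KO Cdk19-/- organoids, 17.0 ± 1.5 CPM in Cdk8 fl/fl Cdk19-/- organoids and 19.9 ± 0.1 CPM in C57BL/6 organoids (SD, n = 3), and the double mutant was not tested against either of the latter lines. The VillinCreERT2 and CDK8 iIEC-KO lines, whose columns were named in another form, stood apart at 6.95 ± 0.55 and 8.85 ± 0.88 CPM. Hlf followed a like order, from 1.07 ± 0.23 CPM in VillinCreERT2 and 1.70 ± 0.38 CPM in CDK8 iIEC-KO to 2.41 ± 0.63 CPM in Cdk8 fl/fl Cdk19-/-, 3.34 ± 0.31 CPM in CDK8 iIEC-KO Cdk19-/- and 3.65 ± 0.21 CPM in C57BL/6, and the libraries overlapped between neighbors in this order except between VillinCreERT2 and CDK8 iIEC-KO. Per3 was lower in CDK8 iIEC-KO Cdk19-/- organoids, at 19.3 to 21.3 CPM, than in Cdk8 fl/fl Cdk19-/- organoids, at 23.8 to 25.6 CPM, also without a test.

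Lines lacking a single kinase were compared with their control lines, here too 1 line a genotype, so that genotype and line cannot be told apart. In CDK8 iIEC-KO against VillinCreERT2 organoids Hlf alone passed both cutoffs, at 0.67 ± 0.24 with adjusted p = 0.0396 (edgeR), 1 of 10 where 7.23% of all genes did. Dbp was 0.35 ± 0.12 higher (adjusted p = 0.0335) and Per1, Nr1d1, Arntl and Tef were lower by 0.25, 0.23, 0.26 and 0.17 without reaching the fold cutoff, so that 6 of 10 had an adjusted p under 0.05 where 30.3% of all genes did. In Cdk8 fl/fl Cdk19-/- against C57BL/6 organoids Hlf fell by 0.60 ± 0.20 (adjusted p = 0.0427, edgeR), again 1 of 10 where 5.25% of all genes did, and Per3 was lower by 0.23 (adjusted p = 0.0453), which made 2 of 10 with an adjusted p under 0.05 where 15.5% of all genes had one. Dbp at -0.22 had an adjusted p of 0.165 (edgeR) and a 95% interval of -0.44 to -0.0066. Both Hlf calls rest on 17 to 62 reads a library and were lost under several other settings, with the adjusted p reaching 0.206 and 0.181 when 1 library was left out. Several marker sums differed without overlap. CDK8 iIEC-KO and VillinCreERT2 organoids held 17629 to 19111 and 26629 to 32310 CPM of enterocyte markers. Their goblet markers were at 787 to 800 and 1123 to 1216 CPM and proliferation genes at 990 to 1104 and 804 to 869 CPM. Cdk8 fl/fl Cdk19-/- and C57BL/6 organoids held 2390 to 2550 and 3275 to 4136 CPM of Paneth markers. The part of these sums was not tested.

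**Figure D2:**
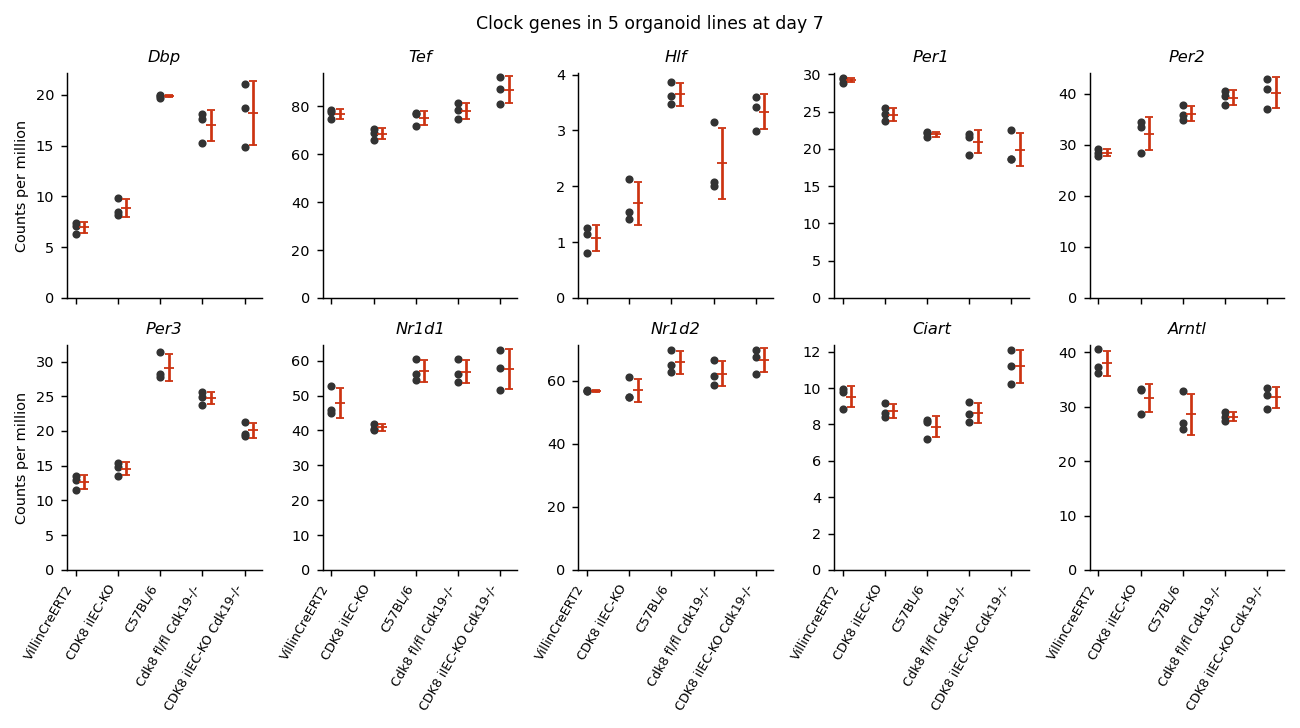
Level of each clock gene in CPM in 5 organoid lines at day 7, all given 4-OHT, with a point for each of 3 libraries and a red mean with SD beside them. Dbp, Hlf and Per3 are lowest in the VillinCreERT2 line and highest or near highest in C57BL/6, and the double mutant means lie between those of VillinCreERT2 and C57BL/6.

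In vehicle organoids the clock genes changed with the day of collection, without 4-OHT. Dbp was at 56.1, 46.5 and 51.5 CPM on day 3, 44.8, 32.8 and 29.0 CPM on day 5, 21.9, 22.2 and 21.1 CPM on day 7 and 12.5, 14.0 and 13.8 CPM on day 10. Day 3 and day 10 did not overlap, and the log2 change between them was -1.93 ± 0.12 (adjusted p = 4.74e-13, edgeR). The groups of intermediate days lay between them.

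Other members fell over the same days. From day 3 to day 10 Per2 fell by 1.93 ± 0.10, Per3 fell by 1.73 ± 0.11, Nr1d1 fell by 1.42 ± 0.12 and Per1 fell by 1.37 ± 0.14 on the log2 scale. With Dbp, 5 of the 9 members tested passed both cutoffs downward, where 22.4% of all genes did. Nr1d2 went the other way by 0.35 ± 0.07, short of the fold cutoff, and Arntl was at -0.06 ± 0.09. Any difference among the 4 days was called for 9 of 9 members, where 76.5% of all genes were called. Several marker sums differed without overlap between days 3 and 10 in EtOH organoids as well, among them Paneth markers (2639 to 3212 and 6602 to 6852 CPM), tuft markers (16.3 to 18.9 and 3.73 to 5.11 CPM), enterocyte markers (8697 to 9923 and 12664 to 16234 CPM), proliferation genes (707 to 771 and 998 to 1048 CPM) and the 10 immediate early genes (486 to 532 and 287 to 338 CPM). Their part in the clock gene values was not tested.

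The steps were uneven. Between days 7 and 10 Dbp, Per1, Per2, Per3, Nr1d1 and Ciart passed both cutoffs downward in EtOH organoids, 6 of 9 where 13.9% of all genes did. Per1 averaged 60.1, 52.9 and 50.7 CPM on days 3, 5 and 7 and was at 23.2 CPM on day 10. Between days 5 and 7 Dbp alone of the members passed, at -0.71 ± 0.12, where 0.285% of all genes passed downward. Between days 3 and 5 the members that passed were Per2 at -0.83 ± 0.09 and Per3 at -1.00 ± 0.10, where 9.14% of all genes passed downward. The form of the column names also changed from day 5 to day 7 and from day 7 to day 10. Day, naming form, time since passage and hour of collection cannot be told apart in these libraries.

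The 4-OHT organoids did not follow the same course. Between days 3 and 5 Dbp rose by 0.78 ± 0.12 and Nr1d1 by 0.63 ± 0.12 in them, 2 of 9 where 22.2% of all genes passed both cutoffs. Between days 5 and 7 no member passed by edgeR, where 4.82% of all genes did. Between days 7 and 10 Dbp, Per1, Per2, Per3, Nr1d1 and Ciart fell as in EtOH, 6 of 9 where 36.4% of all genes passed, and Dbp fell by 1.26 ± 0.12.

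**Figure D3:**
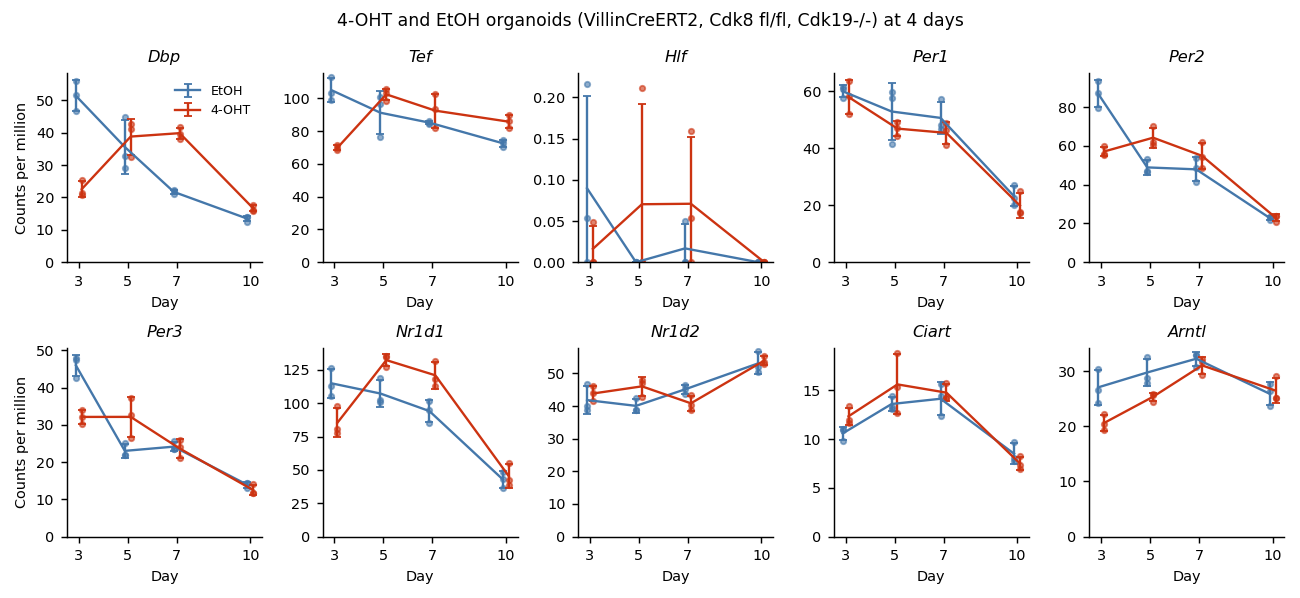
CPM of each clock gene at days 3, 5, 7 and 10 in EtOH (blue) and 4-OHT (red) organoids, with points for the 3 libraries of a group and lines through means with SD. The blue Dbp line runs from 51.4 to 13.5 CPM, while the red line starts lower, at 22.6 CPM, and stands above the blue one at day 7.

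The response to 4-OHT, given to remove CDK8 from organoids that already lack CDK19, changed sign over the days for Dbp. No organoids without the Cdk8 fl/fl allele were given EtOH. In every comparison of 4-OHT with EtOH, 4-OHT exposure, Cre activation and CDK8 loss thus cannot be told apart. At day 3 the 4-OHT libraries held 20.7, 25.5 and 21.5 CPM of Dbp against 56.1, 46.5 and 51.5 CPM in EtOH, a fall of 1.19 ± 0.12 on the log2 scale (adjusted p = 9.34e-09, edgeR). At day 5 they held 42.7, 41.2 and 32.4 CPM and overlapped with EtOH (0.13 ± 0.12, adjusted p = 0.414). At day 7 they held 41.6, 39.7 and 38.2 CPM, all above the EtOH libraries, and Dbp rose by 0.88 ± 0.12 (adjusted p = 1.18e-06). At day 10 the difference was 0.31 ± 0.13 (adjusted p = 0.0599).

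Tef and Per2 fell with Dbp at day 3. Tef was at 68.4, 71.4 and 69.4 CPM in 4-OHT and at 113, 98.7 and 103 CPM in EtOH organoids, and fell by 0.59 ± 0.08 (adjusted p = 1.02e-06). Per2 was at 55.6, 60.1 and 55.8 CPM against 79.8, 93.7 and 87.3 CPM and fell by 0.61 ± 0.09 (adjusted p = 3.40e-06, edgeR). These 3 of 9 members passed both cutoffs, where 12.4% of all genes did. Tef and Per2 lie just past the fold cutoff, and with upper quartile scaling only Dbp remained past it.

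Per3, Nr1d1 and Arntl were lower at day 3 by 0.52, 0.43 and 0.39 with an adjusted p under 0.05, short of the fold cutoff, and Per1, Nr1d2 and Ciart were at -0.05, 0.07 and 0.22. An adjusted p under 0.05 was thus reached by 6 of 9, where 34.4% of all genes reached it. The median over the 9 members was -0.43, beside -0.02 over all genes. The summed enterocyte markers (8 genes) moved as well, at 2627 to 2983 CPM in 4-OHT and 8697 to 9923 CPM in EtOH organoids on that day, whereas at day 7 they overlapped at 13002 to 16720 CPM and 13190 to 17559 CPM. At day 3 tuft markers were also lower in 4-OHT (8.31 to 11.1 and 16.3 to 18.9 CPM) and proliferation genes higher (843 to 899 and 707 to 771 CPM). Other sums did not overlap at day 7, with Paneth markers at 1369 to 1547 CPM in 4-OHT and 3752 to 4564 CPM in EtOH, tuft markers at up to 3.67 CPM and at 8.78 to 12.4 CPM and proliferation genes at 404 to 592 CPM and 785 to 928 CPM. Their part in the clock gene values was not tested.

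At days 5 and 10 no member passed both cutoffs by edgeR, where 13.2% and 15.8% of all genes did. Per3 at 0.48 ± 0.10, Per2 at 0.39 ± 0.09, Nr1d1 at 0.30 ± 0.12, Nr1d2 at 0.20 ± 0.07 and Arntl at -0.23 ± 0.09 had an adjusted p under 0.05 at day 5, and Tef at 0.24 ± 0.08 at day 10. These were 5 of 9 members where 38.3% of all genes had an adjusted p under 0.05, and 1 of 9 where 44.3% did. At day 7 Dbp was the 1 member of 9 that passed, where 18.3% of all genes did. Nr1d1 was 0.36 ± 0.12 higher on that day, which made 2 of 9 with an adjusted p under 0.05, where 45.2% of all genes had one.

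The difference of the response between days was tested directly. Any difference among the 4 days was called for Dbp, Tef, Per2, Per3, Nr1d1, Nr1d2 and Arntl, 7 of 9 members where 60.8% of all genes were called, and not for Per1 (adjusted p = 0.863) or Ciart (adjusted p = 0.186, edgeR). From day 3 to day 5 the response of Dbp shifted by 1.31 ± 0.17, of Per2 by 1.00 ± 0.13, of Per3 by 1.00 ± 0.14, of Tef by 0.76 ± 0.11 and of Nr1d1 by 0.73 ± 0.17. These 5 of 9 passed both cutoffs, where 20.2% of all genes did. From day 5 to day 7 Dbp alone shifted further, by 0.75 ± 0.17, where 8.81% of all genes passed, and from day 7 to day 10 no member passed, where 6.41% did.

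The response at day 10 was also measured in Wnt3-CM. In Wnt3-CM, Nr1d1 was at 108, 97.9 and 105 CPM in EtOH and at 45.5, 41.7 and 36.6 CPM in 4-OHT organoids, a fall of 1.33 ± 0.08 on the log2 scale (adjusted p = 1.32e-11, edgeR). It was the 1 of 9 members past both cutoffs, where 16.9% of all genes were. In standard medium on the same day Nr1d1 was at 48.8, 36.5 and 43.3 CPM in EtOH and at 55.3, 42.4 and 38.4 CPM in 4-OHT organoids, which overlapped (0.08 ± 0.13). In Wnt3-CM several sums were lower in 4-OHT than in EtOH organoids without overlap, at 1398 to 1726 CPM against 4549 to 5030 CPM for Paneth markers, 1.39 to 2.14 CPM against 13.1 to 16.5 CPM for tuft markers, 7305 to 7906 CPM against 9769 to 10188 CPM for epithelial markers, 291 to 331 CPM against 660 to 748 CPM for immediate early genes and 276 to 289 CPM against 446 to 472 CPM for glucocorticoid-induced genes. Their part in the Nr1d1 and Dbp values was not tested.

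Dbp in Wnt3-CM was at 24.6, 23.7 and 26.9 CPM in EtOH and at 19.1, 18.9 and 16.1 CPM in 4-OHT organoids. Its log2 change of -0.48 ± 0.09 had an adjusted p of 0.000235 (edgeR) and was short of the fold cutoff, as were those of Per1 (-0.53), Ciart (-0.49) and Arntl (-0.28). With Nr1d1 these were 5 of 9 with an adjusted p under 0.05, where 48.2% of all genes had one. The difference of the responses between the media passed both cutoffs for Nr1d1 (-1.41 ± 0.18, adjusted p = 6.08e-05) and Dbp (-0.79 ± 0.13, adjusted p = 0.000122), 2 of 9 members where 13.3% of all genes passed. The media came from separate tables, so that medium and experiment cannot be told apart, for the levels or for the responses.

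With kinase-dead CDK19 in place of none, no change of Dbp was called at day 7. It was at 16.0, 22.9 and 23.5 CPM in EtOH and at 10.9, 15.7 and 19.7 CPM in 4-OHT organoids of the Cdk19 D173A/- line, which overlapped (-0.44 ± 0.24, adjusted p = 0.225, edgeR). Its response differed from that of the Cdk19-/- line on the same day by -1.32 ± 0.25 (adjusted p = 0.00275), the 1 of 10 members past both cutoffs where 11.1% of all genes were. The lines have different numbers and tables, so that allele and line cannot be told apart.

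Hlf was the member past both cutoffs within the Cdk19 D173A/- line, 1 of 10 where 12.3% of all genes were. It was at 1.08, 1.23 and 1.54 CPM in EtOH and at 2.73, 2.55 and 2.34 CPM in 4-OHT organoids, and rose by 0.98 ± 0.21 (adjusted p = 0.00587, edgeR). Per3 at -0.55, Per1 at -0.45 and Per2 at -0.27 had an adjusted p under 0.05 and were short of the fold cutoff, so that 4 of 10 had such a p where 27.8% of all genes did. In the time course line and in Wnt3-CM, Hlf had 0 to 4 reads in each library and was not tested.

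The low Hlf of that line went with other missing transcripts. The enteroendocrine markers Chga, Chgb and Neurod1 summed to at most 0.981 CPM in the time course and Wnt3-CM libraries, and to 174 to 754 CPM in the double mutant, VillinCreERT2, C57BL/6 and Cdk19 D173A/- organoids and 124 to 233 CPM in IECs. Within the Cdk19 D173A/- line the same sum was lower in 4-OHT organoids, 230 to 252 CPM against 694 to 754 CPM, while Hlf was higher. Tuft markers (6.85 to 8.17 and 31.4 to 35.9 CPM), Paneth markers (1225 to 1453 and 1886 to 2147 CPM) and proliferation genes (443 to 528 and 600 to 675 CPM) were also lower in 4-OHT than in EtOH without overlap, and enterocyte markers were higher (40001 to 40742 and 28324 to 34845 CPM). Any part of these cells in the Hlf level was not tested.

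**Figure D4:**
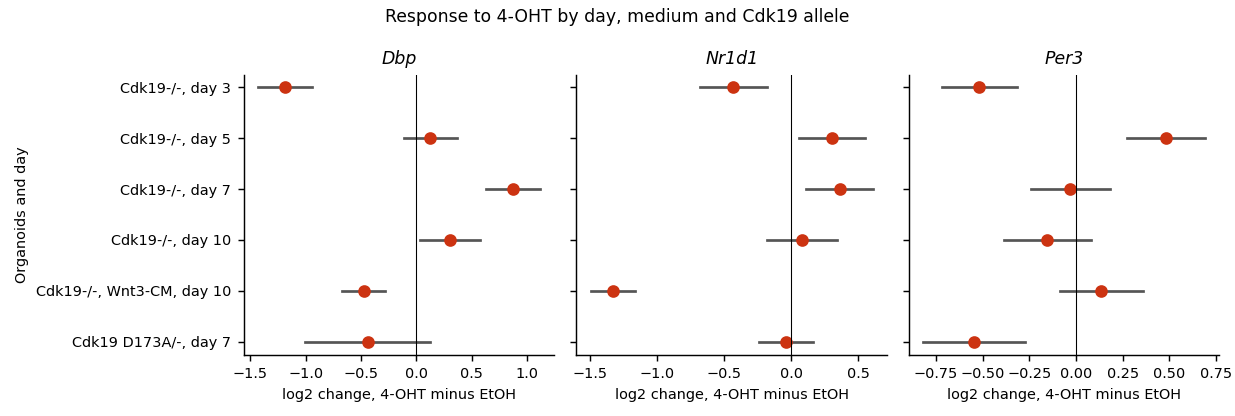
Log2 change of Dbp, Nr1d1 and Per3 from EtOH to 4-OHT (points) with 95% intervals from the edgeR fit (lines), by Cdk19 allele, medium and day. Dbp runs from -1.19 at day 3 to 0.88 at day 7, and the Wnt3-CM point of Nr1d1 stands apart at -1.33.

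Set side by side, the members past the cutoffs did not share a direction where the treated organoids lacked CDK8 and had no active CDK19. Over 7 tested comparisons (the day 7 lines against VillinCreERT2, 4 days of the time course, Wnt3-CM and Cdk19 D173A/-), Dbp was past both cutoffs upward in 2 and downward in 1, with log2 changes from -1.19 to 1.39. Per3 passed upward in 1, and Tef, Per2 and Nr1d1 passed downward in 1 each. Hlf passed upward in both comparisons in which it could be tested, while Per1, Nr1d2, Ciart and Arntl passed in none of the 7 by edgeR. Per1 was nevertheless below 0 in all 7, from -0.55 to -0.05, with an adjusted p under 0.05 in 3 of them (the day 7 lines, Wnt3-CM and Cdk19 D173A/-), and was at -0.66 in IECs. In IECs, Dbp was at -2.64 with no organoid comparison as low. In the labels the organoids also differ from IECs in the days since deletion, 3 to 10 against 14. The control genotype also differs from that of the IECs in every organoid comparison of the 7 but that of the day 7 lines. In the comparison of day 7 lines, genotype and line cannot be told apart.

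**Figure D5:**
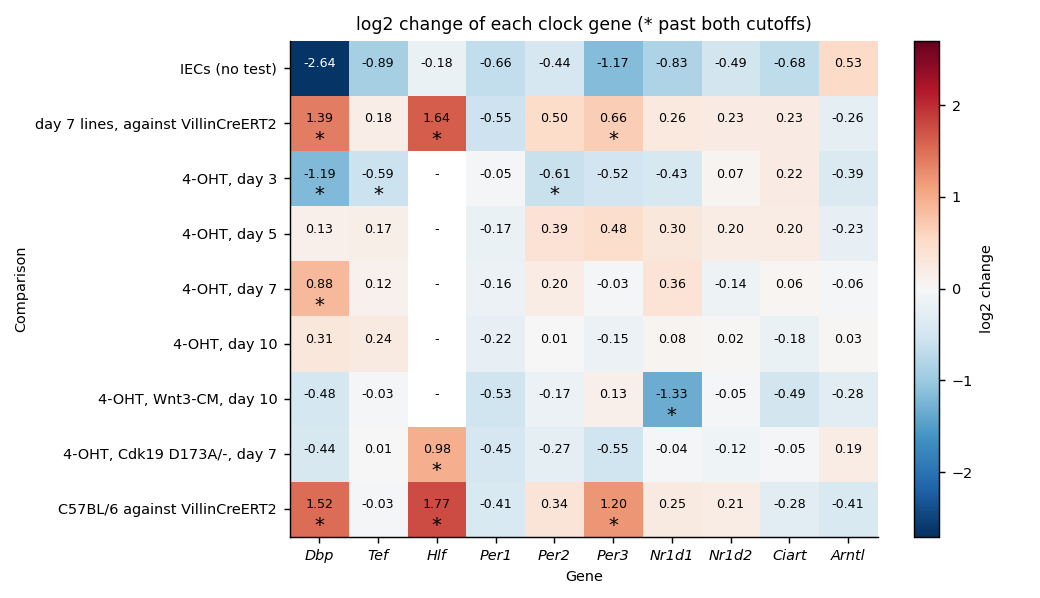
Log2 change of each clock gene (columns) in the IEC contrast and 8 organoid comparisons (rows), in color from blue (lower) to red (higher), with a star where a tested change passed both cutoffs and a dash where the gene had too few reads. The IEC row is blue but for Arntl, both rows of day 7 lines against VillinCreERT2 are red for Dbp, Hlf and Per3, and the Dbp cells of the time course go from blue at day 3 to red at day 7.

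Further clock genes were read in the same organoid comparisons, from the lists of loop genes, 7 modifiers and 4 outputs. Results of 1 listed gene are not reported, so that the genes named do not give the full balance of rises and falls. At day 3 of 4-OHT, Arntl2 (an ARNTL paralog) rose by 0.69. At day 5, Nfil3 (a repressor at D-boxes) fell by 0.61, and the listed outputs Usp2 and Tspan4 fell by 1.27 and 0.75. At day 7, Tspan4 fell by 0.87. At day 10, Npas2 (a CLOCK paralog) fell by 0.93 and Nfil3 fell by 0.71. Usp2 and Tspan4 fell by 1.79 and 1.01 at day 10, and Csnk1e, a kinase of PER, fell by 0.91.

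In Wnt3-CM, Nfil3 at -0.92, Csnk1e at -0.80, Csnk1a1 at -0.71 and Tspan4 at -1.03 passed, and in the Cdk19 D173A/- line Nfil3 at 0.80, Csnk1e at -0.71 and Tspan4 at -0.99. In the day 7 double mutant line, Cry2 at 0.66 rose and Npas2 at -0.64, Rora at -1.07 and Tspan4 at -0.59 fell. In CDK8 iIEC-KO organoids Npas2 fell by 0.75, and in C57BL/6 against VillinCreERT2 organoids Arntl2 at 0.69 rose and Clock at -0.71, Npas2 at -0.71 and Nfil3 at -1.16 fell. The shares of all genes that passed are those given for each comparison above. The 1 listed gene not reported is missing here too, so that rises and falls cannot be counted from the genes named. None of these genes is a member, and no test of the lists was made.

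Levels were also compared between members, per kilobase of exon. Nr1d1 was the highest member in all 19 groups, from 13.3 CPM per kb in CDK8 iIEC-KO organoids to 72.8 CPM per kb in VillinCreERT2 IECs. Hlf ranked between 8 and 10. Dbp ranked anywhere from 2 to 8, from 17.2 CPM per kb in day 3 EtOH organoids to 1.67 CPM per kb in the double mutant IECs, and Per1 spanned the same ranks.

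Set across separately scaled tables and so without a test, Ciart was lower in IECs than in organoids. It averaged 0.811 and 0.504 CPM in the IEC groups and 7.50 to 15.6 CPM in the organoid groups. Nr1d1 averaged 224 and 126 CPM in IECs and 40.8 to 132 CPM in organoids.

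Over the 24 time course libraries, the log2 CPM of Dbp ran most closely with that of Nr1d1 among the members (Pearson r = 0.88), then Per2 (0.86), Per3 (0.78), Tef (0.76), Per1 (0.71), Ciart (0.54) and Arntl (0.16), and against Nr1d2 (-0.73). Among 11598 genes with at least 50 counts on average, those most like Dbp outside the members were Fam20c (0.96), Ces2g (0.96), Efna1 (0.95), Sh3rf2 (0.95) and Dmac2 (0.95), and those least like it Tgfbr1 (-0.97), Tmed5 (-0.95), Golt1b (-0.95), Fam49b (-0.94) and Wdr6 (-0.94). These libraries share 1 line, 4 days and 2 treatments, so that r describes their pattern and is no test.

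Exons of 4 members overlap those of a gene on the other strand in the GENCODE annotation: Dbp with Sphk2 over 539 bases, Nr1d1 with Thra over 263, Tef with Gm17597 over 193 and Arntl with Gm45355 over 33. The use of strand in counting is not given in the sources used here, so that reads there cannot be told apart. The neighbors were looked at after the member values were seen. Sphk2 was at -0.52 in IECs, -0.50 at day 3 and 0.17 at day 7 of 4-OHT, where Dbp was at -2.64, -1.19 and 0.88, and in Wnt3-CM it was at -0.77 where Dbp was at -0.48. Thra was at -0.65 in Wnt3-CM where Nr1d1 was at -1.33, at -0.68 at day 3 where Nr1d1 was at -0.43, and at 0.39 at day 7 where Nr1d1 was at 0.36. Summed over the 4 neighbors, mutant IECs held 216 to 252 CPM and control IECs 314 to 339 CPM. In the day 7 double mutant against VillinCreERT2 lines the 2 neighbors tested were both lower, with a median of -0.26. Dbp was at 1.39 and Nr1d1 at 0.26 there.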

How the data were processed

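The authors deposited whole-number counts of reads per gene, not normalized, in 4 tables of 54752 genes. The submitters' processing notes name STAR 2.5.2, featureCounts from Subread 1.6.3 and the mm10 build. The use of strand in counting is not given in the sources used here. Members and lists were chosen with earlier results of these data known, and the named genes were the 10 members, at most 4 genes of each list that passed both cutoffs (in IECs, that did not overlap), by size of change, and the 5 genes most and the 5 least like Dbp.

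Of the deposited columns, 57 libraries in 19 groups were used and 6 columns of per-sample values were not, so that the planned IEC kinase-dead comparison was not run. Columns of the Cdk19 D173A/- line were assigned by elimination, and those of this line and of Wnt3-CM could not be tied to replicate numbers. Totals ranged from 15485959 to 32909565 counts, and the least different replicates still differed beyond sampling noise (chi-square per degree of freedom 2.41).

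Counts were fitted per table with edgeR 4.0.16 in R 4.3.3 (filterByExpr, TMM, robust quasi-likelihood F test), two-sided, with Benjamini-Hochberg adjustment over all genes tested. The Wnt3-CM and Cdk19 D173A/- libraries share 1 table and were fitted apart. Genes were called at a fold change above 1.5 with an adjusted p below 0.05. Values in CPM are the deposited counts scaled to a common library total, given as mean ± SD, and log2 changes are given ± SE. Differences of responses between tables were tested in joint fits. DESeq2 1.42.0, limma 3.58.1 (voom), upper quartile scaling, other filters, single left-out libraries and a replicate block were alternatives. In no comparison were the deviations of same-numbered libraries correlated above 0.1 in every pair (r from -0.41 to 0.35), so the numbers were not taken to pair them. The code was tested on simulated data. Lengths and loci are from GENCODE (GRCm38), and promoter sequences from RefSeq (GRCm38.p6). Results of 1 listed gene are not reported here.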

Additional observations from a re-analysis of the deposited data

Results flagged for a closer look

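The response to 4-OHT differed between days 3, 5, 7 and 10 for 7 members, by a test of the difference itself (edgeR), for 6 with no filter on low counts or with upper quartile scaling, and for 5 to 7 with 1 library left out. The range of the log2 change over the 4 days was 2.06 for Dbp (-1.19, 0.13, 0.88 and 0.31 in order of day), 0.83 for Tef, 1.00 for Per2, 1.00 for Per3, 0.79 for Nr1d1, 0.34 for Nr1d2 and 0.42 for Arntl. Between Wnt3-CM and standard medium at day 10 the response differed by -0.79 for Dbp and by -1.41 for Nr1d1. Between the Cdk19 D173A/- and the Cdk19-/- line at day 7 the response of Dbp differed by -1.32.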

How the results depend on the processing

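No result reversed under the alternatives run. The count of clock genes past both cutoffs became 0 for CDK8 iIEC-KO against VillinCreERT2 organoids with no filter, with DESeq2, with limma-voom and with only the groups compared, and 0 for Cdk8 fl/fl Cdk19-/- against C57BL/6 organoids with no filter, with DESeq2 and with only the groups compared. It became 1 at day 3 of 4-OHT with at least 10 counts in every library, with upper quartile scaling and with only the groups compared, where Tef and Per2 fell short of the fold cutoff. It became 2 in the Cdk19 D173A/- line with upper quartile scaling.

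Leaving out 1 library gave counts of 0 to 1 for CDK8 iIEC-KO, 0 to 1 for Cdk8 fl/fl Cdk19-/-, 3 to 4 for CDK8 iIEC-KO Cdk19-/-, 3 to 3 for the control lines, 1 to 3 at day 3 (1 without 4-OHT replicate 3), 0 to 1 at day 5 (Per3, without 4-OHT replicate 3), 1 to 1 at day 7, 0 to 0 at day 10, 9 to 9 for the days in EtOH, 5 to 7 for the difference of response among days (5 without day 3 4-OHT replicate 1), 1 to 2 in Wnt3-CM (2 without 4-OHT replicate 1), 1 to 2 in the Cdk19 D173A/- line, 2 to 2 for the difference between media and 1 to 2 for that between Cdk19 alleles. Dbp in IECs ranged from -2.74 to -2.40. With the replicate block Dbp in IECs was -2.61, and the counts of clock genes past the cutoffs stayed at 1, 1, 3 and 3 for the day 7 lines, 3, 0, 1 and 0 for days 3 to 10, 9 for the days in EtOH and 7 for the difference of response.

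Over all genes the IEC contrast was unstable, with 228 calls by edgeR, 8 with the replicate block, 859 with DESeq2, 1103 with no filter, and from 3 (without VillinCreERT2 replicate 3) to 1566 (without VillinCreERT2 replicate 2) when 1 mouse was left out. A replicate block could not be fitted for Wnt3-CM and Cdk19 D173A/-, whose columns carry no number of the labels, and the IEC kinase-dead comparison was not run. The cause of these moves was not tested.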
